A study of Mus musculus with 80 samples.

Results

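The 8 genes Fgf5, Otx2, Pou3f1, Sox3, Zic2, Zic5, Cdh2 and Cd24a are used as markers of the formative and primed states of the epiblast. They were taken by symbol from the 25965 gene rows of the RNA-seq table, and each symbol had 1 row. H3K9me2 was read for the same genes from the 2-kb bins that overlap each gene from its start to its end.

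The study followed wild-type E14 mouse embryonic stem cells (ESCs) as serum medium was exchanged for 2i, and holds 80 samples in all. Serum cells were kept in DMEM with fetal calf serum and LIF. The 2i medium was serum-free N2B27 with LIF, the MEK inhibitor PD0325901 and the GSK3 inhibitor CHIR99021, so LIF was common to all groups. RNA-seq covered serum and 6, 24 and 72 h in 2i with 3 libraries each. H3K9me2 ChIP-seq covered serum, 24 h in 2i and long-term 2i (LT2i, for a time that the sources do not state), with 2 bound libraries and 1 input library each. E14 is 1 cell line, no library came from an embryo, and the exchange changes the basal medium, the serum and both inhibitors at once, so their effects cannot be told apart.

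Naive ESCs resemble the epiblast before implantation, and formative and primed cells resemble the epiblast after it. Signalling by fibroblast growth factors through MEK and ERK promotes the step from the naive to the formative state, and the MEK inhibitor in 2i blocks that signal. ESCs in serum are a mixture in which some cells have moved toward the later states. H3K9me2, dimethylated lysine 9 of histone H3, is a broad mark of repressed chromatin that is usually low at the starts of active or CpG-rich genes.

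RNA-seq libraries held 11466775 to 17016341 reads in genes, as recovered from the deposited values. The values are log2 levels corrected for gene length and library depth, so levels of different genes can be compared. The pluripotency factors Pou5f1 and Sox2 were high in every group, with mean log2 values of 8.02 to 8.55 for Pou5f1 and 6.44 to 7.47 for Sox2. Of the markers of other cell types, 2 of 5 neural, 3 of 5 mesoderm and primitive streak, 3 of 6 endoderm and 3 of 5 fibroblast genes reached the level needed for a test. The summed linear level of the neural list was 49.1 to 51.4 in serum libraries, 94.0 to 96.8 at 6 h, 60.4 to 76.8 at 24 h and 31.4 to 35.7 at 72 h, against 394.5 to 694 for the core pluripotency list over all libraries. Tubb3, a neuronal tubulin, made up most of that sum. The fibroblast list was at 7.59 to 9.75 in serum and 4.41 to 4.94 at 72 h, the endoderm list at 3.45 to 4.46 over all libraries, and the mesoderm list at 2.85 to 3.64 in serum and 5.59 to 8.61 at 72 h. Within the mesoderm list Gsc rose (log2 change 5.28 ± 0.55, SE, limma adjusted p = 1.25e-05), T fell (-0.79 ± 0.20, limma adjusted p = 0.00594) and Eomes did not pass the test (0.44 ± 0.19, limma adjusted p = 0.0693) at 72 h. The part of these lists in the changes below was not tested. In bulk RNA, fewer cells that express a gene and less RNA per expressing cell cannot be told apart.

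The sequence before the gene start is shown for the 3 members with a RefSeq promoter at the start used in the table, since ChIP-seq read the chromatin there and these 3 genes moved down together. The build is GRCm38.p6, the sequences run 5′ to 3′ on the gene's strand, and capitals mark CpG dinucleotides. Fgf5 is at chr5:98253934-98254183 on the plus strand, Otx2 at chr14:48667645-48667894 on the minus strand and Zic5 at chr14:122465678-122465908 on the minus strand. Each stretch ends 1 base before the first transcribed base in the table. The start of Zic5 in the table lies 19 bases before that of RefSeq, so its stretch is 231 bases long and the others are 250.
Fgf5: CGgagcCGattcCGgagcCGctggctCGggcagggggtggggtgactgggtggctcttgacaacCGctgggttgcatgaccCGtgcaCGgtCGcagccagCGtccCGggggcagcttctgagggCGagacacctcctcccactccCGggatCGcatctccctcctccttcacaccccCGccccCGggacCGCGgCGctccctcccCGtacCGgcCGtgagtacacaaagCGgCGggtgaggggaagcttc
Otx2: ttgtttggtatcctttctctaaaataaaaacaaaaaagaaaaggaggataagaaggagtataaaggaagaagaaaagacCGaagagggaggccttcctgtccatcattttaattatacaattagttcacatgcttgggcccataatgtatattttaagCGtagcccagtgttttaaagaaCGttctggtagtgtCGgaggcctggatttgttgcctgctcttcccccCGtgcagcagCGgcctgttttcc
Zic5: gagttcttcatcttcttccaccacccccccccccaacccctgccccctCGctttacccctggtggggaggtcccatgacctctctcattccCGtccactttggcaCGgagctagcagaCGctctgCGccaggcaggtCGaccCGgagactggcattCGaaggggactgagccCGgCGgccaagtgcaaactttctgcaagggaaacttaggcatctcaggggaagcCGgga

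The Fgf5 stretch held 24 CpGs, more than 88.0% of 32841 RefSeq promoters over the same 250 bases, whose median was 6. The Zic5 stretch held 11 (median 5 over 231 bases). The Otx2 stretch held 6 and was 42.0% G and C, against 70.8% in Fgf5. An ETS motif (CCGGAA, either strand) occurred once in Fgf5, on the minus strand, and 12% of all promoters held it over 250 bases. The letters CCGGAA were not in the other windows, and neither the TCF/LEF motif CTTTGA (13.8% of promoters) nor the OTX motif TAATCC (6.25%) was in any of the 3, on either strand.

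In serum, Cd24a (mean log2 value 4.25 ± 0.12, SD, n = 3) and Pou3f1 (4.15 ± 0.14) had the highest levels, and their libraries overlapped. Zic2 (3.24 ± 0.23), Zic5 (2.81 ± 0.01), Otx2 (2.64 ± 0.10), Sox3 (1.55 ± 0.36), Cdh2 (1.21 ± 0.04) and Fgf5 (0.22 ± 0.26) followed without overlap between neighbours. At 72 h the order was Cd24a (5.11 ± 0.21), Zic2 (2.95 ± 0.22), Zic5 (1.70 ± 0.07), Otx2 (0.16 ± 0.28), Sox3 (-0.53 ± 0.23), Cdh2 (-0.77 ± 0.38), Pou3f1 (-1.42 ± 0.27) and Fgf5 (-5.04 ± 1.32). Sox3 and Cdh2 overlapped there and no other neighbours did. Pou3f1 thus went from the second to the seventh place, while Cd24a held the first and Fgf5 the last in both conditions.

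**Figure D1:**
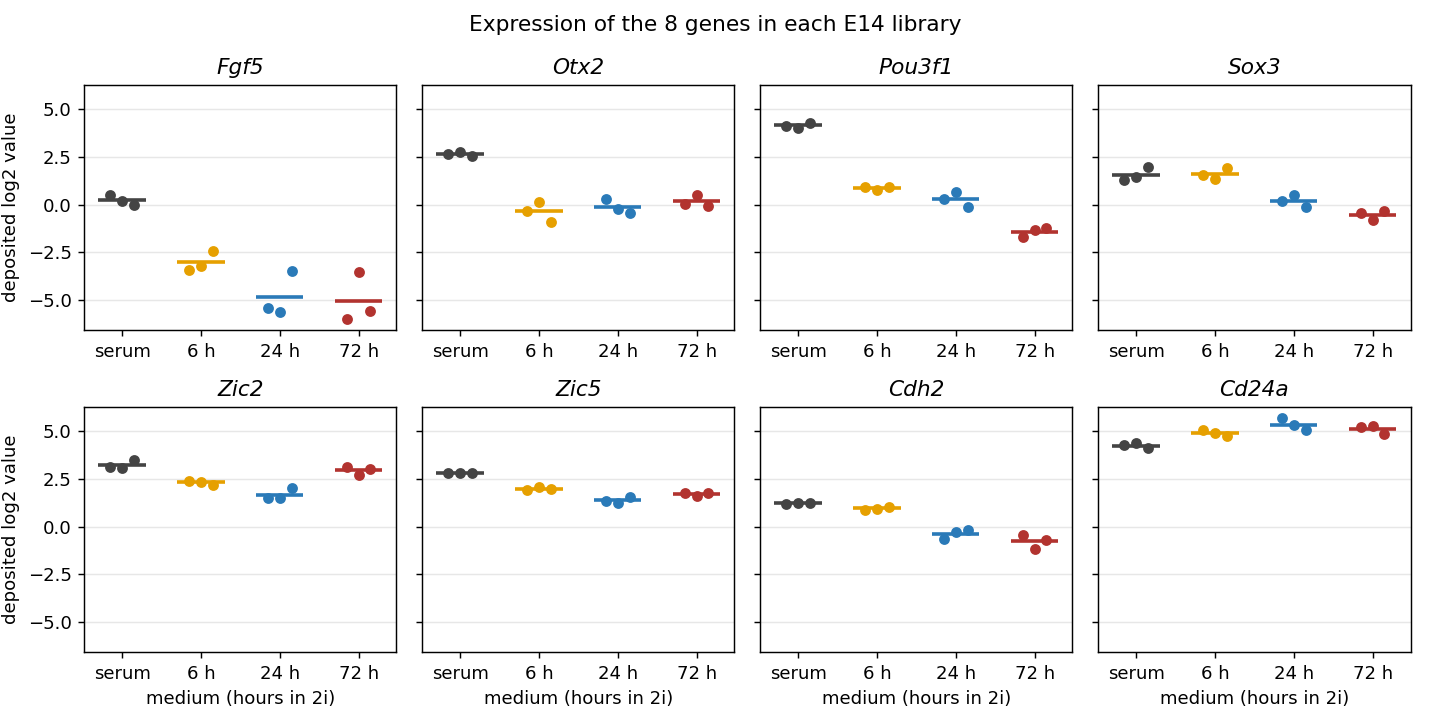
Deposited log2 value of each gene in each of the 12 E14 libraries (points, 3 per condition) with the group mean (bar), for serum and each time in 2i (6, 24 and 72 h). Pou3f1 and Fgf5 dropped furthest, Zic2 was lowest at 24 h (mean 1.66) and higher again at 72 h (2.95), and Cd24a was higher in 2i than in serum.

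Of the 8 genes, 7 had a mean log2 value of -1 or more and were tested among 12743 genes with limma, and Fgf5 was below that level. At 6 h, 4 of the 7 were lower than in serum and 1 higher, against 6.13% of all tested genes lower and 8.87% higher. At 24 h, 6 were lower and 1 higher, against 28.2% lower and 33.5% higher. At 72 h, 5 were lower and 1 higher, against 25.8% and 24.9%. Their median log2 change was -0.82, -1.58 and -1.98 at the 3 times, beside medians of 0.01, 0.10 and -0.01 over all tested genes. Libraries without overlap were common. All libraries of 6, 24 and 72 h lay below all serum libraries for 19.8%, 29.6% and 31.7% of tested genes. They lay above them for 23.9%, 33.9% and 30.7%.

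**Figure D2:**
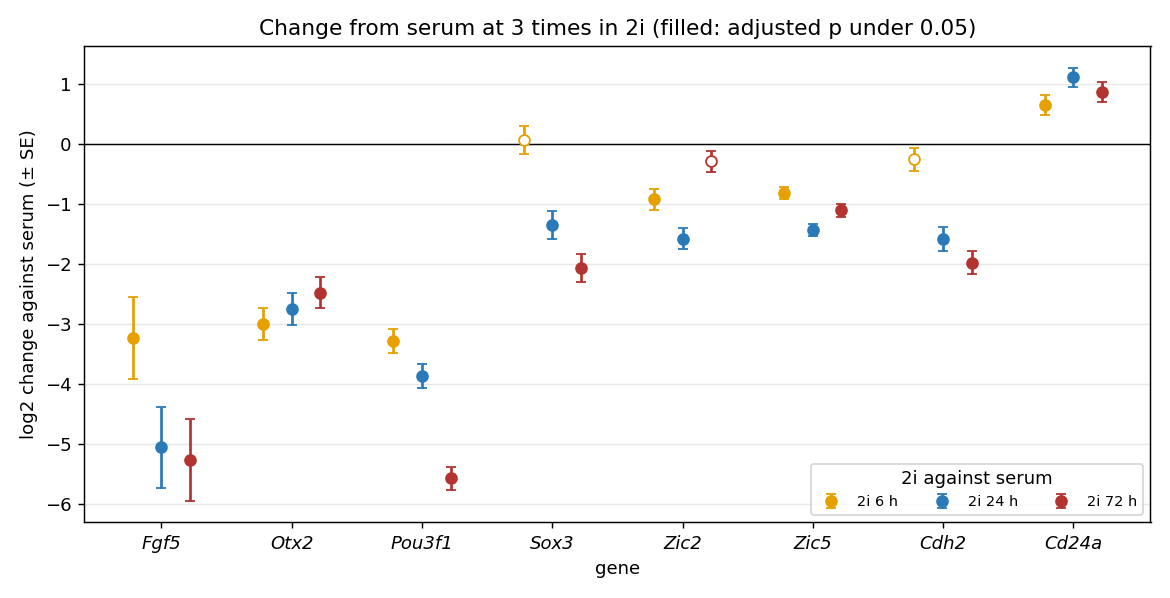
Log2 change against serum (points) with its standard error (bars) for each gene at 6, 24 and 72 h in 2i. Filled points passed a limma adjusted p of 0.05, and Fgf5 comes from the fit without a filter. Otx2, Pou3f1 and Fgf5 were at or below -2.48 at every time, Sox3 and Cdh2 were near 0 at 6 h, and Cd24a was above 0 at every time.

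Fgf5 (chromosome 5, 98254184 to 98277030, plus strand) codes for a fibroblast growth factor and is a classic marker of the epiblast after implantation. Its log2 values were 0.49, 0.21 and -0.03 in the serum libraries, -3.41, -3.20 and -2.41 at 6 h, -5.41, -5.62 and -3.46 at 24 h, and -6.00, -3.53 and -5.59 at 72 h. These rest on 66, 45 and 56 reads in serum, 4, 5 and 9 at 6 h, 1, 0 and 5 at 24 h, and 0, 4 and 1 at 72 h. Every 2i library was below every serum library, and the libraries of 24 and 72 h overlapped. Pooled over libraries, serum held 8.74 times as many Fgf5 reads per read in genes as 6 h (exact 95% interval 5.36 to 15.1), 28.2 times as many as 24 h (12.7 to 77.9) and 34.3 times as many as 72 h (14.4 to 107.1). These intervals cover counting error only. Without the filter, over 19811 genes, Fgf5 was lower at 6 h (log2 change -3.23 ± 0.68, SE, limma adjusted p = 0.00961), where 4.54% of all genes were called lower. It was also lower at 24 h (-5.05 ± 0.68, limma adjusted p = 0.000132, against 21.8% of genes) and at 72 h (-5.26 ± 0.68, limma adjusted p = 9.40e-05, against 20.7%). From 24 to 72 h the difference was -0.21 ± 0.68 (limma adjusted p = 0.857), at read numbers too low to show a change.

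Pou3f1 (chromosome 4, 124657646 to 124660655, plus strand) codes for the POU-domain transcription factor also known as OCT6. Serum libraries had log2 values of 4.13, 4.02 and 4.29, and those of 6 h had 0.92, 0.75 and 0.92. The values were 0.30, 0.66 and -0.12 at 24 h and -1.72, -1.34 and -1.21 at 72 h. The 4 conditions did not overlap, and each was below the one before. Such a step was seen for 19.8% of tested genes from serum to 6 h, 29.2% from 6 to 24 h and 17.2% from 24 to 72 h. The gene fell 9.73-fold by 6 h (log2 change -3.28 ± 0.20, SE, limma adjusted p = 1.19e-06), 14.6-fold by 24 h (-3.87 ± 0.20, limma adjusted p = 1.16e-07) and 47.5-fold by 72 h (-5.57 ± 0.20, limma adjusted p = 3.38e-09). Between 24 and 72 h it fell by 1.70 ± 0.20 on the log2 scale (limma adjusted p = 0.000122). The step from 6 to 24 h (-0.58 ± 0.20, limma adjusted p = 0.0252) lost its call in 4 of the fits without 1 library, those without replicate 1 or 3 at 6 h or at 24 h (limma adjusted p = 0.0511 to 0.0735), and when only the 6 libraries compared were fitted (limma adjusted p = 0.0598).

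Otx2 (chromosome 14, 48657679 to 48667644, minus strand) codes for a homeobox factor that drives ESCs out of the naive state. Its log2 values were 2.64, 2.74 and 2.54 in serum, -0.33, 0.15 and -0.89 at 6 h, 0.30, -0.21 and -0.42 at 24 h, and 0.05, 0.48 and -0.05 at 72 h. Serum stood alone, and the 3 times in 2i overlapped. Otx2 fell 8.00-fold by 6 h (log2 change -3.00 ± 0.26, SE, limma adjusted p = 1.72e-05) and was 5.58-fold lower at 72 h (-2.48 ± 0.26, limma adjusted p = 1.52e-05). The differences of 24 h from 6 h (0.25 ± 0.26, limma adjusted p = 0.426) and of 72 h from 24 h (0.27 ± 0.26, limma adjusted p = 0.439) did not pass the test.

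Sox3 (chromosome X, 60891370 to 60893430, minus strand) codes for a SOXB1 transcription factor of the epiblast and of neural progenitors, related to SOX2. Serum libraries had log2 values of 1.26, 1.42 and 1.96 and those of 6 h had 1.55, 1.33 and 1.93, so these conditions overlapped. The difference was 0.05 ± 0.23 (SE, limma adjusted p = 0.943), and its sign turned when serum replicate 1 or 2 or replicate 3 at 6 h was left out. Values at 24 h were 0.19, 0.51 and -0.12, and at 72 h -0.44, -0.79 and -0.35. Sox3 fell by 1.40 ± 0.23 on the log2 scale from 6 to 24 h (limma adjusted p = 0.000555) and was 4.22-fold lower than serum at 72 h (-2.08 ± 0.23, limma adjusted p = 2.42e-05). The further step from 24 to 72 h was -0.73 ± 0.23 (limma adjusted p = 0.0362). It lost its call without serum replicate 2, without replicate 1 at 6 h, without replicate 1 or 2 at 24 h and without replicate 1 or 2 at 72 h (limma adjusted p up to 0.138). It was also lost with quantile normalization (limma adjusted p = 0.0676), with limma voom on the recovered reads (adjusted p = 0.0892), and when only the 6 libraries compared were fitted (limma adjusted p = 0.0945). With a pseudocount of 1 the limma adjusted p was 0.09996, and with the gene span trend removed it was 0.143.

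Zic2 and Zic5 are neighbours on chromosome 14 (122475435 to 122479852 on the plus strand and 122456795 to 122465677 on the minus strand), with 9758 bp between their starts. Both code for zinc finger factors of the ZIC family. Zic2 had log2 values of 3.14, 3.08 and 3.50 in serum, 2.40, 2.36 and 2.19 at 6 h, 1.49, 1.49 and 2.00 at 24 h, and 3.11, 2.69 and 3.04 at 72 h. It was lowest at 24 h, and the libraries of 72 h overlapped those of serum. Zic2 fell 1.90-fold by 6 h (log2 change -0.93 ± 0.17, SE, limma adjusted p = 0.00363) and 3.00-fold by 24 h (-1.58 ± 0.17, limma adjusted p = 2.05e-05). It then rose 2.44-fold from 24 to 72 h (1.29 ± 0.17, limma adjusted p = 0.000311), and its difference from serum at 72 h was -0.29 ± 0.17 (limma adjusted p = 0.176). Among all tested genes, 15.3% rose and 15.6% fell from 24 to 72 h, and of the 7 members 2 rose and 2 fell.

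Zic5 had log2 values of 2.81, 2.83 and 2.80 in serum, 1.92, 2.06 and 1.99 at 6 h, 1.35, 1.24 and 1.54 at 24 h, and 1.75, 1.62 and 1.74 at 72 h. All 2i libraries were below all serum libraries, and those of 24 h were the lowest. It fell 1.77-fold by 6 h (log2 change -0.82 ± 0.10, SE, limma adjusted p = 0.000238) and 2.71-fold by 24 h (-1.44 ± 0.10, limma adjusted p = 1.05e-06), and was 2.16-fold lower than serum at 72 h (-1.11 ± 0.10, limma adjusted p = 5.28e-06). The step up from 24 to 72 h was 0.33 ± 0.10 (limma adjusted p = 0.0327). It lost its call without serum replicate 1 or 2, without replicate 1 or 2 at 24 h, or without replicate 1 or 3 at 72 h (limma adjusted p = 0.0512 to 0.118), and when only the 6 libraries compared were fitted (limma adjusted p = 0.177). The gene 2610035F20Rik lies 236 bp from Zic2 on the opposite strand, and the kit used for the libraries does not mark the strand, so reads at that border cannot be assigned by strand. The same holds for Sox3, where Gm14662 lies 223 bp away on the opposite strand.

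Cdh2 (chromosome 18, 16588877 to 16809246, minus strand) codes for N-cadherin, which replaces E-cadherin as epiblast cells leave the epithelium. Its log2 values were 1.17, 1.22 and 1.25 in serum and 0.88, 0.93 and 1.04 at 6 h. They were -0.64, -0.29 and -0.20 at 24 h and -0.42, -1.18 and -0.72 at 72 h. The values of 6 h lay below those of serum without overlap, as they did for 19.8% of tested genes, but the difference of -0.26 ± 0.19 (SE) did not pass the test (limma adjusted p = 0.471). Cdh2 fell by 1.33 ± 0.19 on the log2 scale from 6 to 24 h (limma adjusted p = 0.00024) and was 3.96-fold lower than serum at 72 h (-1.98 ± 0.19, limma adjusted p = 7.32e-06). From 24 to 72 h the difference was -0.40 ± 0.19 (limma adjusted p = 0.129), and -0.79 with the trend of values with gene span removed in each library (limma adjusted p = 0.00126). The row Gm15485 lies within Cdh2 on the other strand. Cdh1, which codes for E-cadherin, was also lower than serum at 24 h (-0.70 ± 0.15, limma adjusted p = 0.00238) and fell by 0.56 ± 0.15 on the log2 scale from 6 to 24 h (limma adjusted p = 0.00967). It did not pass the test at 72 h (0.17 ± 0.15, limma adjusted p = 0.381).

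Cd24a (chromosome 10, 43579169 to 43584262, plus strand) codes for a small glycosylated protein anchored at the cell surface. It was the only member of the 7 tested that was higher in 2i. Its log2 values were 4.26, 4.36 and 4.12 in serum, 5.04, 4.89 and 4.75 at 6 h, 5.69, 5.30 and 5.05 at 24 h, and 5.21, 5.25 and 4.87 at 72 h. Every 2i library was above every serum library, as for 23.9%, 33.9% and 30.7% of tested genes at 6, 24 and 72 h. Cd24a rose 2.15-fold by 24 h (log2 change 1.10 ± 0.16, SE, limma adjusted p = 0.000188) and was 1.82-fold higher than serum at 72 h (0.87 ± 0.16, limma adjusted p = 0.00111). The rise at 6 h (0.65 ± 0.16, limma adjusted p = 0.0209) lost its call without serum replicate 1 or 3 or without replicate 1 or 2 at 6 h (limma adjusted p = 0.0646 to 0.0911). The mouse genome holds processed copies of Cd24a, and the deposited values do not show how reads shared with them were counted.

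From 6 to 24 h, 5 of the 7 tested members fell and 1 rose, against 27.2% and 30.7% of all tested genes. Besides Sox3 and Cdh2, the step was -0.66 ± 0.17 (SE) for Zic2 (limma adjusted p = 0.00755) and -0.62 ± 0.10 for Zic5 (limma adjusted p = 0.000561). The step of Cd24a was 0.45 ± 0.16 (limma adjusted p = 0.0343), which lost its call without replicate 2 or 3 at 6 h, without replicate 1 or 2 at 24 h, with only the 6 libraries compared (limma adjusted p = 0.0762), and with the gene span trend removed (limma adjusted p = 0.307). Fgf5 was 1.82 ± 0.68 lower on the log2 scale at 24 h than at 6 h in the fit without a filter (limma adjusted p = 0.0491), and limma voom on the recovered reads gave an adjusted p of 0.0654. This call was lost in 9 of the 12 fits without 1 library and with the replicate numbers as a block (limma adjusted p = 0.0505). With a pseudocount of 1 the step of Fgf5 was -0.11, and it was not called (limma adjusted p = 0.188). Pou3f1, Otx2 and Fgf5 thus had their largest step within the first 6 h. So did Zic5 (-0.82, then -0.62) and Cd24a (0.65, then 0.45), whose first steps were closer in size to the next. Sox3 and Cdh2 had theirs between 6 and 24 h, and Zic2 had its largest from 24 to 72 h (1.29).

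The members differed in the genes whose values ran most like theirs over the 12 libraries, among 520 genes with a mean log2 value of 1 or more and group means at least 2 apart. These correlations describe libraries that share their conditions, and carry no test. For Fgf5 the most alike was Myc (Pearson's r = 0.93), and for Otx2 they were Manba (0.97), Pdk1 (0.96) and the ERK pathway inhibitor Spry2 (0.95). Pou3f1 ran with Cyr61 (0.99), the Wnt receptor Fzd7 (0.98) and Rarg (0.98). Zic2 ran with Ceacam1 (0.95), Dlc1 (0.94) and Jarid2 (0.93), and Zic5 with Enpp3, Nufip2 and Il17rd (0.99, 0.99 and 0.98). Sox3 ran with Ccnd1, which codes for cyclin D1 (0.98), Tgm1 (0.97) and Mest (0.97). Cdh2 ran with Slc5a5 (0.99), the de novo methyltransferase gene Dnmt3b (0.99) and Syt11 (0.98). Cd24a ran with Atf3 (0.98) and Trib3 (0.96), both stress response genes, and Calb2 (0.95). Among the members, the closest pair was Sox3 and Cdh2 (r = 0.95 over 12 libraries), and Zic2 and Sox3 had an r of 0.14.

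Other genes of the formative and primed epiblast were mostly lower in 2i. Of 15, all tested, 11 were lower and 2 higher than in serum at 6 h, 13 lower and 1 higher at 24 h, and 14 lower and none higher at 72 h, with median log2 changes of -0.80, -1.84 and -2.91. Over all tested genes, 6.13%, 28.2% and 25.8% were lower and 8.87%, 33.5% and 24.9% higher at these times. The de novo methyltransferase genes Dnmt3b and Dnmt3a had log2 changes of -4.19 ± 0.13 and -2.37 ± 0.11 (SE) at 72 h. The RNA-binding factor Lin28a (-3.91 ± 0.10), Grhl2 (-3.67 ± 0.12), Sox11 (-3.99 ± 0.24), Utf1 (-3.44 ± 0.12) and Lef1 (-3.40 ± 0.19) were among the 14, and each of these 7 named genes had a limma adjusted p of 1.75e-07 or less. Nodal, a TGF-beta family ligand, did not pass the test at 72 h (-0.15 ± 0.10, limma adjusted p = 0.265).

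Of 8 ERK pathway target genes 7 were tested, and 5, 6 and 5 of them were lower than in serum at 6, 24 and 72 h, with none higher. Dusp6, a phosphatase that acts on ERK, was at -5.28 ± 0.18 at 6 h (limma adjusted p = 3.79e-08) and Spry2 at -2.77 ± 0.12 (limma adjusted p = 1.06e-07). Etv4, an ETS factor, was at -1.07 ± 0.12 at 6 h and -5.30 ± 0.12 at 24 h. Of 11 naive pluripotency genes, 6, 7 and 8 were higher and 3, 3 and 2 lower at the 3 times, with medians of 0.51, 0.50 and 1.35. Over all tested genes, 8.87%, 33.5% and 24.9% were higher and 6.13%, 28.2% and 25.8% lower. Prdm14 (2.37 ± 0.14 at 72 h) and Nanog (1.72 ± 0.17) were higher, and Zfp42 (-0.67 ± 0.14) and Nr0b1 (-0.92 ± 0.18) were lower.

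Among 12 family relatives of the members 6 were tested, and the others had group means at or below -1.95 in every condition. Fgf4, the main FGF ligand of naive ESCs, was higher at 72 h (0.92 ± 0.10, limma adjusted p = 1.47e-05). The receptor gene Fgfr2 was lower (-0.96 ± 0.13, limma adjusted p = 9.49e-05).

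**Figure D3:**
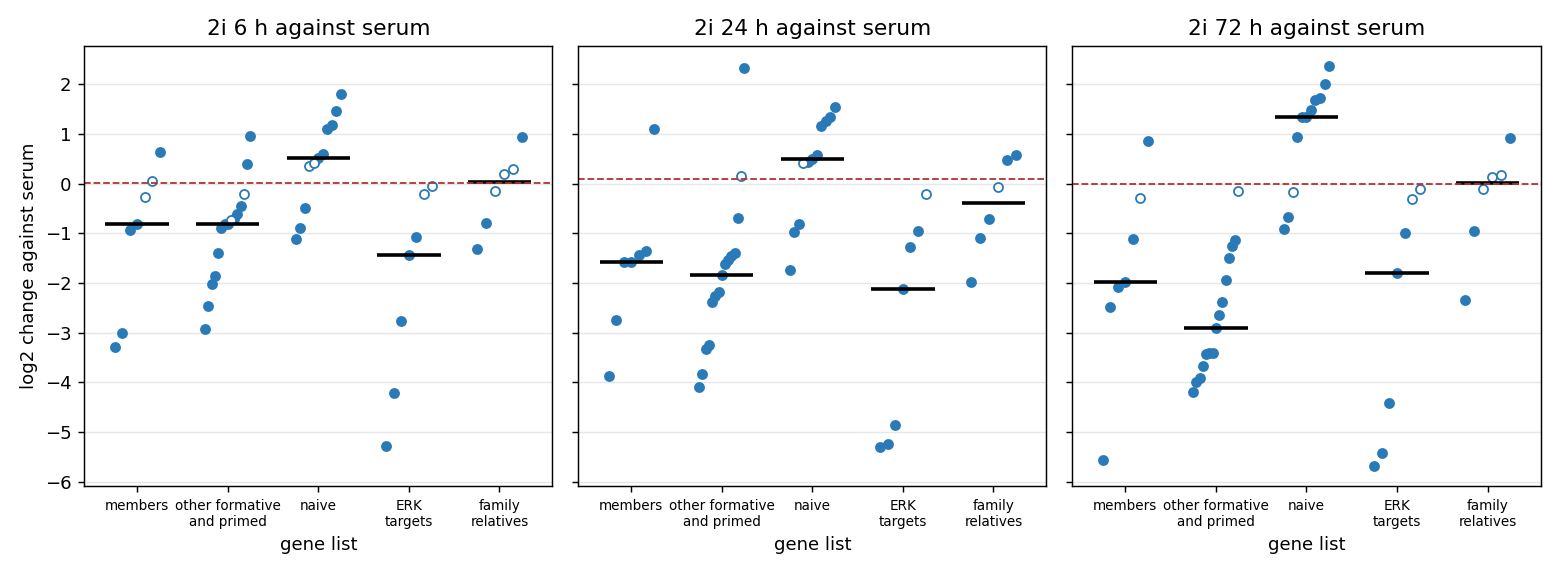
Log2 change against serum of each tested gene (points, filled where the limma adjusted p is under 0.05) in the members and 4 related lists at 6, 24 and 72 h, with the list median (black bar) and the median of all tested genes (dashed red line). The median of the other formative and primed genes was -2.91 at 72 h and that of the naive genes 1.35.

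H3K9me2 was measured as reads in the bound library over reads in the input of the same condition, scaled so that the mean over all bins is 1. Bins that pass the deposited filter held 14396552 to 23785128 reads per library, and the median gene body was at 0.488 and 0.526 in serum, 0.487 and 0.49 at 24 h, and 0.26 and 0.275 in LT2i. The small gene bodies rest on few bound reads, so the serum ratios of these are given with exact 95% intervals for counting error.

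The gene bodies of Otx2, Pou3f1, Zic2, Zic5 and Cd24a were below the median gene body in both serum libraries. Zic2 had 1 and 2 bound reads over 54 input reads in serum (0.0189, interval 0.00050 to 0.11, and 0.0394, 0.0047 to 0.149). It was at 0.025 and 0.0241 at 24 h and at 0 and 0.0231 in LT2i, where 0 reads leave room for up to 0.0764. Otx2 was at 0.161 (0.0952 to 0.259) and 0.142 (0.0804 to 0.237) in serum, and Pou3f1 at 0.126 (0.0522 to 0.263) and 0.115 (0.0443 to 0.25). Zic5 was at 0.0967 (0.0376 to 0.21) and 0.187 (0.095 to 0.339), and Cd24a at 0.323 (0.195 to 0.517) and 0.266 (0.152 to 0.444). At 24 h the ratios were 0.128 and 0.123 for Otx2, 0.192 and 0.0461 for Pou3f1, 0.0197 and 0.114 for Zic5, and 0.216 and 0.265 for Cd24a. In LT2i, Pou3f1 was at 0.0794 and 0.0692, Zic5 at 0.0495 and 0.134, and Cd24a at 0.117 and 0.226. Of 21543 gene bodies, 20.8% and 23.2% were under 0.2 in the serum libraries, 21.8% and 21.9% at 24 h, and 42.3% and 43.7% in LT2i. In LT2i, Cd24a was above 28.5% and 46.6% of gene bodies, and Zic5 above 9.62% and 33.5%.

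Cdh2 and Fgf5 stood apart from these over the gene body. Fgf5 spans 12 listed bins, against 3 to 6 for the genes above, and the part of gene size in this was not tested. Cdh2, whose body spans 108 listed bins, was at 1.21 and 1.25 in serum, 1.15 and 1.17 at 24 h and 1.15 and 1.13 in LT2i, above 83.4% of gene bodies or more in each library. Fgf5 was at 0.821 and 0.688 in serum, 0.724 and 1.10 at 24 h and 0.627 and 0.665 in LT2i. Both genes were lower around the start than over the body in every library. Within 2 kb of the start, Cdh2 was at 0.167 and 0.155 in serum, 0.16 and 0.231 at 24 h and 0.381 and 0.26 in LT2i, and Fgf5 was at 0.371 and 0.123, 0.15 and 0.145, and 0.2 and 0.203. In the same window in serum, Pou3f1 was at 0.146 and 0.0651, Cd24a at 0.0639 and 0.0997, and Zic5 at 0.0671 and 0.0349. Otx2 was at 0.0138 and 0.0287 there, and Zic2 at 0 and 0.019. Most gene starts are low in this mark, with medians of 0.328 and 0.304 in serum and 0.198 and 0.184 in LT2i. Fgf5 was above 53.2% and 25.1% of gene starts in the serum libraries, above 27.4% and 26.3% at 24 h, and above 50.2% and 51.9% in LT2i. Cdh2 was above 30.9% and 30.8% in serum, 29.2% and 40% at 24 h, and 64.3% and 57.8% in LT2i. These starts rest on few bound reads, 9 and 8 for Cdh2 in serum and 17 and 10 in LT2i, and the exact 95% intervals of Cdh2 replicate 1 in serum (0.0727 to 0.341) and in LT2i (0.202 to 0.689) overlapped. The difference was not tested. The listed part of Sox3 was 1 bin with 9, 10 and 6 input reads in serum, 24 h and LT2i, and its LT2i libraries had 9 and 0 bound reads, so its level was not measurable at this depth.

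The flanks of 50 kb on each side were higher than the gene body in all 6 bound libraries for Otx2, Pou3f1, Zic2, Zic5 and Cd24a, in 5 of 6 for Fgf5 and in 4 of 6 for Cdh2. Over 21533 gene bodies, 45.9% were below their flanks in all 6 libraries. Around Otx2 the flanks were at 0.637 and 0.588 in serum and around Cd24a at 0.858 and 0.859. The flanks of Zic2 (0.505 and 0.562) and Zic5 (0.506 and 0.546) hold each other's gene, and share most of their bins.

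**Figure D4:**
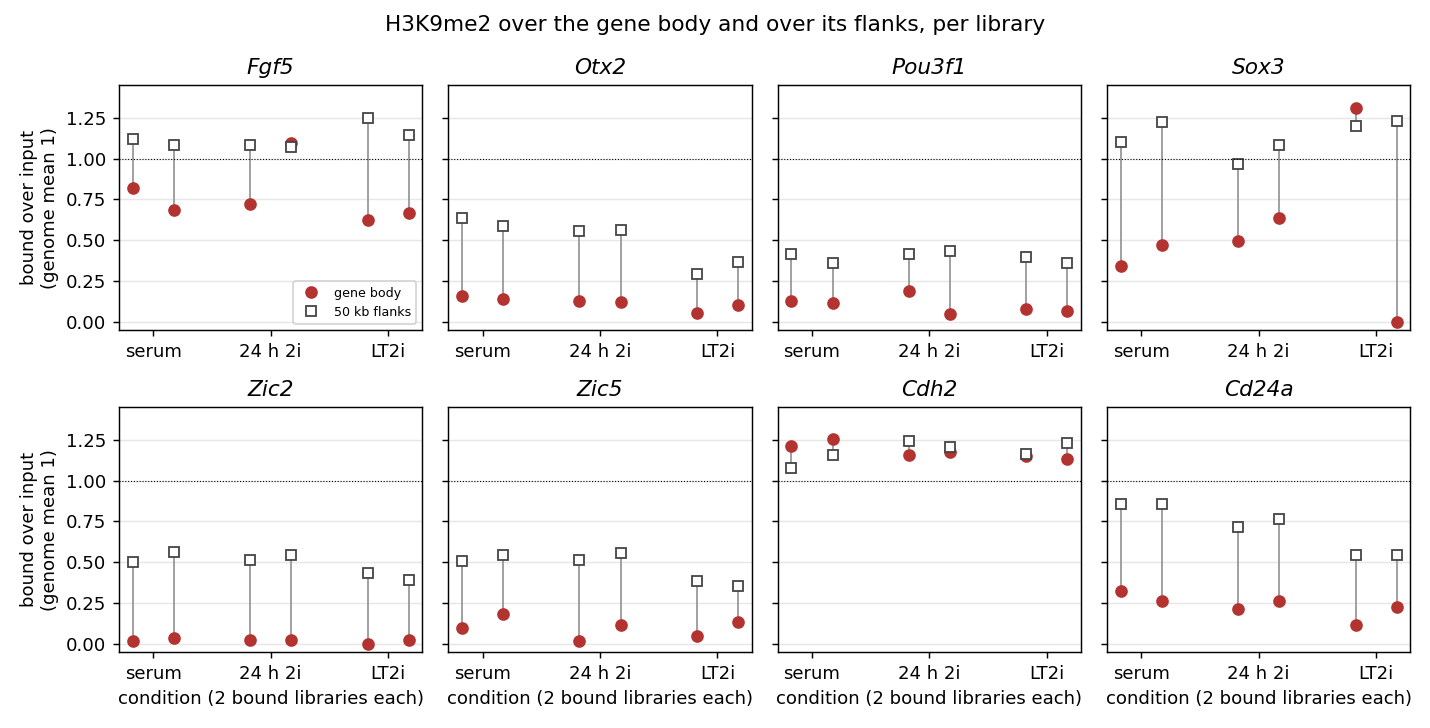
H3K9me2 as bound over input reads (genome mean 1, dotted line) over the gene body (red circles) and its 50-kb flanks (open squares) in each bound library, with 2 libraries in serum, at 24 h and in LT2i. Bodies of Otx2, Pou3f1, Zic2, Zic5 and Cd24a lay below their flanks in every library, and Cdh2 had body and flanks between 1.07 and 1.25.

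The low stretch around the start differed in width. With a limit of 0.5 on the ratio of the 2 bound libraries summed, chosen after the profiles were seen, the unbroken run of listed bins in serum reached from -27.4 to 16.6 kb around the Zic2 start. This run of 21 bins also covers Zic5. It reached from -8.4 to 17.6 kb at Otx2 (13 bins), from -5.6 to 4.4 kb at Pou3f1 (5 bins), from -5.2 to 4.8 kb at Cd24a (5 bins), from -2.8 to 5.2 kb at Cdh2 (4 bins) and from -2.2 to 3.8 kb at Fgf5 (3 bins). At Pou3f1 a single bin at 0.695 ended the run, and the 24 listed bins beyond it, centred 7.4 to 53.4 kb from the start, were again at 0 to 0.472. The run at Otx2 passes through a bin barely under the limit, at 0.4965 on 20 bound and 21 input reads. That bin is centred 8.644 kb from the start, so a slightly lower limit would shorten the run. Of all 1026637 listed bins, 20.2% were under this limit in serum, but the median gene start was also under it, at 0.328 and 0.304. Run widths at other genes were not measured. In the bin that covers the start, serum had 0 bound reads of both libraries together at Zic2, Zic5, Cdh2 and Cd24a, over 13 to 26 input reads, 1 at Otx2 and Pou3f1, and 5 at Fgf5 over 22 input reads. No listed bin covered the start of Sox3. In LT2i the share of all bins under the limit was 31.5%, and the runs had 30 bins at Zic2, 30 at Pou3f1, where the run reached the edge of the window, 16 at Otx2, 6 at Cd24a, 3 at Fgf5 and 2 at Cdh2.

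**Figure D5:**
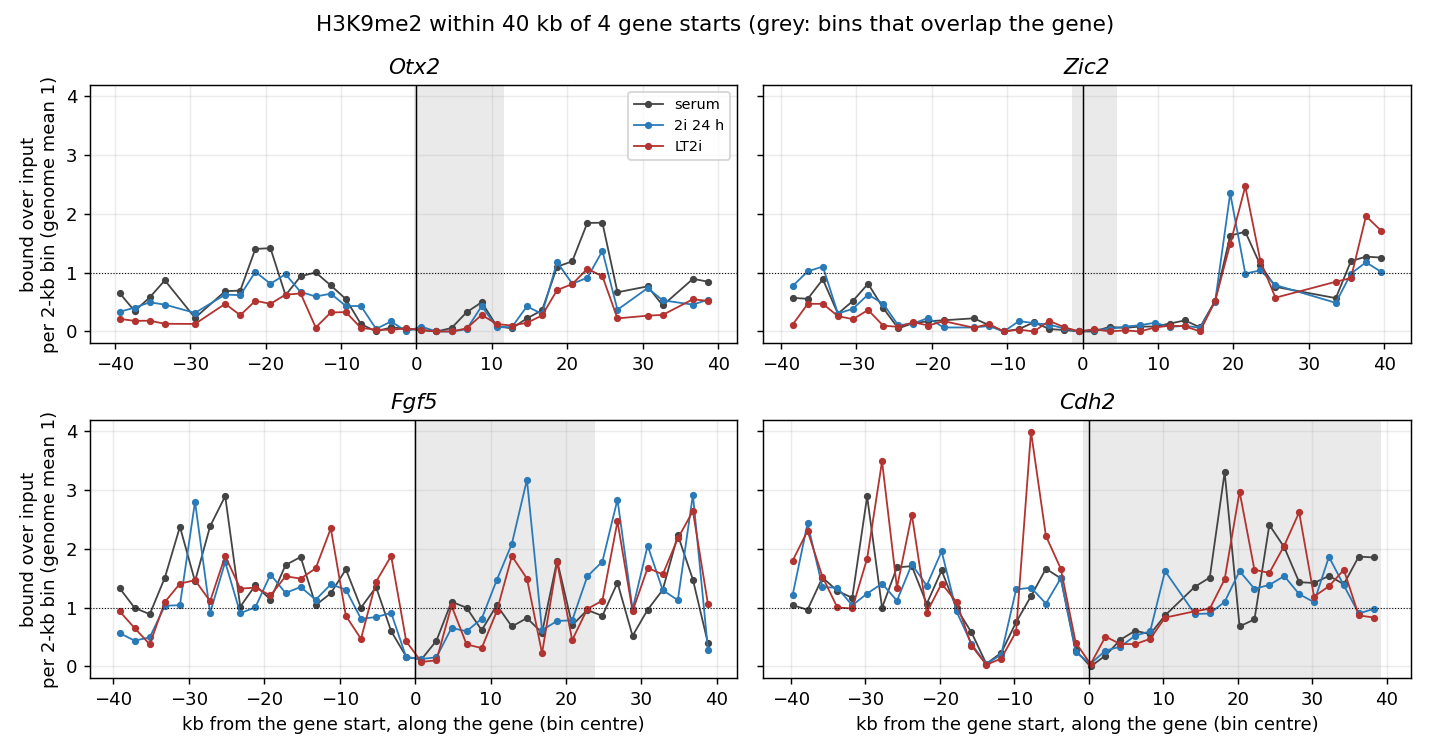
H3K9me2 per 2-kb bin (bound over input, 2 bound libraries summed, genome mean 1) against the distance of the bin centre from the gene start in kb along the gene, for Otx2, Zic2, Fgf5 and Cdh2 in serum, at 24 h and in LT2i. Grey marks bins that overlap the gene. With a limit of 0.5, Otx2 and Zic2 lie in low stretches of 13 and 21 bins in serum, and Fgf5 and Cdh2 are low over 3 and 4 bins. The stretch of Otx2 includes a bin at 0.4965.

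Between conditions, H3K9me2 was tested on 17589 gene bodies with 50 or more reads in each input, among them Fgf5, Otx2, Zic5 and Cdh2. At 24 h no gene was called by limma (0% lower and none higher), with 3154 at an unadjusted p under 0.05 and no member among them. The log2 changes were 0.25 ± 0.19 (SE) for Fgf5 (limma adjusted p = 0.535), -0.22 ± 0.33 for Otx2 (limma adjusted p = 0.768), -1.04 ± 0.67 for Zic5 (limma adjusted p = 0.46) and -0.08 ± 0.06 for Cdh2 (limma adjusted p = 0.548). The change of Zic5 rests on 7 and 13 bound reads in serum and 1 and 6 at 24 h. Without 1 library the change of Zic5 at 24 h ran from -1.92 to -0.17. RNA of all 4 genes was lower than in serum at that time. As no gene body was called, this H3K9me2 test cannot show that the mark of these genes stayed the same.

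In LT2i, 61.5% of gene bodies were lower relative to the mean over all bins, and the median log2 change of all tested genes was -0.72. Against this, 1 of the 4 members was lower. Otx2 went from 0.161 and 0.142 in serum to 0.0535 and 0.104 (log2 change -0.92 ± 0.33, SE, limma adjusted p = 0.0396), on 20, 17, 6 and 10 bound reads. Without 1 library this change ran from -1.36 to -0.49. The call was lost without either serum library, either library of 24 h or LT2i replicate 1 (limma adjusted p = 0.0602 to 0.152) and with the replicate numbers as a block (limma adjusted p = 0.0512). Fgf5 (-0.22 ± 0.19, limma adjusted p = 0.338) and Cdh2 (-0.11 ± 0.06, limma adjusted p = 0.163) did not pass the test. As the ratios are relative to the mean over all bins, this does not show that either gene kept its amount of the mark. Centring each library on its median level, which differed by -0.93 between LT2i and serum, brought the change of Otx2 to 0.0083 (limma adjusted p = 0.987), that of Fgf5 to 0.72 (limma adjusted p = 0.0143) and that of Cdh2 to 0.82 (limma adjusted p = 0.000117). With this centring 38.2% of all gene bodies were called higher and their median change was 0.22, so these calls single out neither gene. Zic5 was at -0.58 ± 0.67 (limma adjusted p = 0.462). No RNA-seq library of LT2i was used here, so this condition has no matched expression value.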

How the data were processed

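RNA-seq gave deposited log2 values per gene, which the authors corrected for gene length and depth and set to a common 75th percentile, with 0.9 reads entered for none. For ChIP-seq the deposited values are log2 read numbers in bins of 2 kb, brought to the depth of the largest library. The submitters' processing notes name Trim Galore 0.3.5, TopHat2 2.0.11, Bismark 0.12.3 and Bowtie2. Both tables use GRCm38. RRBS and ChIP-BS files (NCBIM37) were not used. Reads of genes were recovered with a gene length chosen so that every library came within 0.05 of a whole number. This tolerance was slightly wider at high read numbers. Such a length was found for all but 3 of 25965 genes, which is thus no separate check. Reads of bins, which need no length, were within 0.05 of a whole number for 100% of bins. Expression was tested on the deposited values with limma 3.58.1 in R 4.3.3 (eBayes with trend, 12 libraries, 4 group means, mean log2 value of -1 or more, Benjamini-Hochberg adjusted p under 0.05). H3K9me2 was tested likewise on log2 of bound over input reads relative to library depth, summed over the bins of a gene with 1 read added (50 or more input reads). The 2 bound libraries of a condition share 1 input, whose error the p-values leave out. In tests on simulated data, counting error of the input raised the number of false calls. Replicates are described as biological for expression. For ChIP-seq nothing says that they came from separate cultures. Intervals are exact (95%). The genes named were the members, fixed lists and the 3 genes most like each member, some of which are not reported here. Members, lists and motifs were chosen with earlier results of these data known.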

Additional observations from a re-analysis of the deposited data

Results flagged for a closer look

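Results were set apart here where a gene's difference from serum was not the same at successive times in 2i, by the limma contrast between the times. From 6 to 24 h the difference moved further down for Sox3 (-1.40), Cdh2 (-1.33), Zic2 (-0.66), Zic5 (-0.62) and Pou3f1 (-0.58), and further up for Cd24a (0.45). From 24 to 72 h it moved down for Pou3f1 (-1.70) and Sox3 (-0.73) and back toward serum for Zic2 (1.29) and Zic5 (0.33). The standard errors were 0.10 to 0.23 on the log2 scale. Some of these steps depend on single libraries. From 6 to 24 h, Pou3f1 and Cd24a each lost the call in 4 fits without 1 library. From 24 to 72 h, Sox3 and Zic5 each lost it in 6. Groups had 2 or 3 libraries, too few for a check of single libraries far from the others.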

How the results depend on the processing

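Over 115 recomputed counts of members called for expression, 102 stayed within 1.5 times the reported count, and of 860 recomputed changes of single members 7 turned their sign, 55 lost a call and 1 gained one. With a filter at a mean log2 value of 1, which leaves only Zic2, Zic5 and Cd24a, the counts were 3, 3 and 2 at 6, 24 and 72 h against serum, 3 from 6 to 24 h and 2 from 24 to 72 h. A required change of 1 on the log2 scale gave 2 at 6 h, 2 from 6 to 24 h and 2 from 24 to 72 h, and a fit to only the 6 libraries compared gave 2 from 24 to 72 h. Without 1 library each, the counts ran from 4 to 5 at 6 h, 7 to 7 at 24 h, 6 to 6 at 72 h, 4 to 6 from 6 to 24 h and 2 to 4 from 24 to 72 h. The 2 came without serum replicate 2, replicate 1 or 2 at 24 h, or replicate 1 at 72 h. Signs turned for Sox3 at 6 h without serum replicate 1 or 2 or replicate 3 at 6 h (range without 1 library -0.11 to 0.26), for Otx2 from 6 to 24 h without replicate 3 at 6 h (range -0.015 to 0.50), and for Fgf5 from 24 to 72 h without replicate 3 at 24 h or replicate 1 or 3 at 72 h (0.47, 0.27 and 0.064). None of these was called. limma voom on the recovered reads, added after the data were seen, turned no sign.

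For H3K9me2 in LT2i, the count of members called was 0 over bins within 2 kb of the start, where no member had 50 reads in each input and so none was tested, 0 without the input filter, 2 with median centring and 0 to 1 without 1 library. Median centring turned the sign of Fgf5 (0.72), Otx2 (0.0083), Zic5 (0.36) and Cdh2 (0.82). Zic5 also turned without LT2i replicate 1 (range without 1 library -1.18 to 0.031), and Fgf5 at 24 h without replicate 2 of 24 h (range -0.048 to 0.545). The cause was not tested.

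Same-numbered libraries of different conditions had deviations correlated from -0.25 to 0.81 for expression, and 8 of 12 libraries were closest to their own number, a hint of pairing from the data. All 3 same-numbered pairs were over 0.1 for serum with 6 h (0.287, 0.144 and 0.544), serum with 24 h (0.27, 0.111 and 0.464) and 6 h with 72 h (0.13, 0.157 and 0.524), which is 3 of the 6 pairs of conditions, and the fit without the block was kept. With the replicate number as a block the counts were 5, 7, 6, 6 and 4 for expression and 0 and 0 for H3K9me2, where the call of Otx2 in LT2i was lost and no other call of a member changed, except that of Fgf5 from 6 to 24 h (adjusted p = 0.0505). Low read numbers limit Fgf5 RNA in 2i and H3K9me2 over Sox3, Zic2, Zic5 and Pou3f1.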

Other observations

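Zic2 was not alone in going back toward its serum value at 72 h. Foxd3, a forkhead factor of pluripotent cells, had a mean log2 value of 4.35 in serum, which went to 1.43, 0.52 and 2.85 at 6, 24 and 72 h, and the rise from 24 to 72 h was 2.34 ± 0.12 (SE, limma adjusted p = 6.44e-07). In the same order Klf5, listed with the naive genes, had 6.32, 5.21, 4.59 and 6.16, with a rise of 1.57 ± 0.25 (limma adjusted p = 0.000964). Fgf8, an FGF ligand of the primitive streak, moved the other way, with -0.60, 0.36, 1.74 and -1.74, and fell by 3.48 ± 0.29 from 24 to 72 h (limma adjusted p = 1.25e-05). These genes were named after their values were seen.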
